A study of Mus musculus with 35 samples.

Results

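The BCL2 family comprises the proteins that promote or oppose the permeabilisation of the outer mitochondrial membrane, and 10 of its genes are described here out of 33292 in the expression table. They were chosen by name: the pro-survival genes *Bcl2*, *Bcl2l1* and *Mcl1*, the pore-forming effectors *Bax* and *Bak1*, and the BH3-only genes *Bid*, *Bbc3*, *Bcl2l11*, *Bad* and *Pmaip1*. All 10 symbols were matched to an Ensembl gene. RNA was sequenced from podocytes of 35 mice, with 1 library per mouse, and each gene is given in TPM, the reads of a gene divided by its length and scaled to a sum of 1000000 in every mouse.

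Every mouse carried 1 floxed *Lmx1b* allele, in which loxP sites surround exons of the homeodomain, together with an rtTA transgene expressed in podocytes, tetO::Cre and the mT/mG reporter. Expression of rtTA is restricted to podocytes, so that doxycycline switches on Cre there and recombined cells turn green. The second *Lmx1b* allele was wild type in the control mice (*Lmx1b*+/lox, labelled WT in the deposited data), carried the H77L substitution of the LIM-A domain in *Lmx1b*H77L/lox mice, and the C118F substitution of the LIM-B domain in *Lmx1b*C118F/lox mice. Control podocytes thus kept 1 wild-type allele after recombination and were heterozygous, whereas podocytes of both knock-in lines kept the mutated allele. All groups had been crossed onto C57Bl/6J, were 7 to 10 weeks old and drank doxycycline at 2 mg/ml for 7 days. Bortezomib, an inhibitor of the proteasome, was injected at 0.3 μg/g body weight every other day, and DMSO, its solvent, served as the control treatment. Both treatments were given to 6 mice of each genotype, except for 5 bortezomib-treated C118F mice. Green podocytes were sorted on day 7.

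In the intrinsic pathway of apoptosis, BAX and BAK form pores in the outer mitochondrial membrane, the pro-survival proteins hold them in check, and the BH3-only proteins either neutralise the pro-survival proteins or engage the effectors. BID connects this pathway to death receptors, because caspase-8 cleaves it into its active form, whereas PUMA (encoded by *Bbc3*) and NOXA (encoded by *Pmaip1*) are classical products of p53 target genes. Podocytes are postmitotic cells of the glomerular filter, and MCL1 and NOXA are short-lived proteins that the proteasome degrades, a step that RNA levels do not show.

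*Bid* (ENSMUSG00000004446, chr6:120862525-120894171 of GRCm39, minus strand), *Mcl1* (ENSMUSG00000038612, chr3:95566026-95570487, plus strand) and *Bcl2* (ENSMUSG00000057329, chr1:106465908-106642060, minus strand) were the members that rose in at least 1 comparison, and sequence upstream of their RefSeq starts is shown for that reason. The RefSeq promoter table (GRCm38.p6) held windows for 9 of the 10 members, and the stretches shown were placed on GRCm39 by exact match. All 250 bases before the RefSeq start of *Bid* lie within annotated exons, so only 30 bases are printed for it, at chr6:120893826-120893855. The stretches of *Mcl1* (chr3:95565782-95566025) and *Bcl2* (chr1:106642061-106642270) hold no annotated exon. Capitals mark the GC box GGGCGG on either strand.
Bid: cggaGGGCGGagcatccggaGGGCGGggct
Mcl1: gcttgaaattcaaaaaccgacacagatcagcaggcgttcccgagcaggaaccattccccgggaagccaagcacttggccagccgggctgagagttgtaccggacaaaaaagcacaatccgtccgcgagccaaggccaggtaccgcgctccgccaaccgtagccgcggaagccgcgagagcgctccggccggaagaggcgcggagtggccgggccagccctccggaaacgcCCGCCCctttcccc
Bcl2: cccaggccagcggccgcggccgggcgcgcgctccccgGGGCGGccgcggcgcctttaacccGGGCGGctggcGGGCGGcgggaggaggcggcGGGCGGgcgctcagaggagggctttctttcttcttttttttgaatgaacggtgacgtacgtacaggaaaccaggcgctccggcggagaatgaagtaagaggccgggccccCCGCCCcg
The GC box occurred 3 times in the window of 250 bases of *Bid*, 1 time in that of *Mcl1* and 7 times in that of *Bcl2*. It was present in 10 of the 15 member windows, which belong to 7 of the 9 members, and in 32.7% of all 32851 windows of the table. The letters TAATTA, a core shared by many homeodomain sites, were found in none of the 15 member windows and in 4.84% of all windows, both strands searched. The letter pattern used for the p53 response element matched only 3 of all 32851 windows (0.00913%) and none of the 15 member windows. A pattern matched this rarely cannot show whether a member lacks the element, so its absence is not read as a result. All of these motif counts are matches of letters within 250 bases and do not locate a bound site.

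Reads recovered from the TPM values summed to between 13958215 and 24001581 per mouse, apart from 1 bortezomib-treated C118F mouse (replicate 2) with 5234743. All 10 podocyte markers were above 0 in every mouse, *Podxl* and *Synpo* included, although 6 of them were called lower in each of the 4 comparisons of knock-in and control mice and 2 were called higher in H77L mice under DMSO. *Lmx1b* RNA itself had medians of 71.5 TPM in DMSO-treated control, 120 TPM in H77L and 104 TPM in C118F mice, and a gene total of this kind shows neither the substitutions nor the recombination. Of the 12 leukocyte markers, 8 had a median of 0 over all mice, among them *Ptprc* and *Cd3e*. Tubule markers were uneven, with a summed level from 6.50 to 1821 TPM. The summed level of the mesangial list (*Des*, *Pdgfrb* and 6 others) was higher in every knock-in group. Its medians were 692 and 778 TPM in DMSO-treated H77L and C118F mice against 60.8 TPM in the control. *Des* and *Pdgfrb* carried most of it, with medians of 347 and 119 TPM over all mice, *Ren1* being next at 5.35 TPM. Of 4 genes tested, 3 were called higher in either line under DMSO. Under bortezomib 2 rose and 1 fell in H77L, and 3 rose and 1 fell in C118F mice. The endothelial sum, carried mainly by *Cldn5*, had medians of 1831, 109 and 129 TPM and the parietal sum 54.1, 123 and 104 TPM in the same order of control, H77L and C118F mice. The study stained claudin-5, the product of *Cldn5*, in control podocytes and reported its loss in both knock-in lines. The endothelial sum therefore does not by itself measure endothelial cells. Of the 10 endothelial markers, 5 had a median under 1 TPM over all mice. In sorted bulk samples, a smaller share of cells that express a gene and less RNA per cell cannot be told apart.

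In DMSO-treated control podocytes the family spanned a wide range of levels. *Mcl1* led with a median of 490.1 TPM, followed by *Bcl2l1* with 81.7, *Bax* with 57.4, *Bcl2* with 22.1, *Bad* with 22.0, *Bbc3* with 17.6, *Bcl2l11* with 2.74, *Bak1* with 1.72, *Bid* with 0.989 and *Pmaip1* with 0.586 TPM. The ranges over mice overlapped between *Bcl2l1* and *Bax*, between *Bcl2* and *Bad*, and between neighbours among the 4 lowest members. They did not overlap between *Mcl1* and *Bcl2l1*, between *Bax* and *Bcl2*, or between *Bbc3* and *Bcl2l11*, while those of *Bad* and *Bbc3* nearly touched at 20.1 and 19.998 TPM. *Mcl1* alone made up a median of 71.1% of the summed TPM of the 10 members in DMSO-treated control podocytes and 80.1% in bortezomib-treated H77L podocytes, the highest of the 6 group medians. Reads set the precision at the lower end: *Mcl1* had 3403 to 20261 reads per mouse, whereas *Bid* had 5 to 447, *Bcl2l11* 29 to 429, *Bak1* 3 to 67 and *Pmaip1* 0 to 80.

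**Figure D1:**
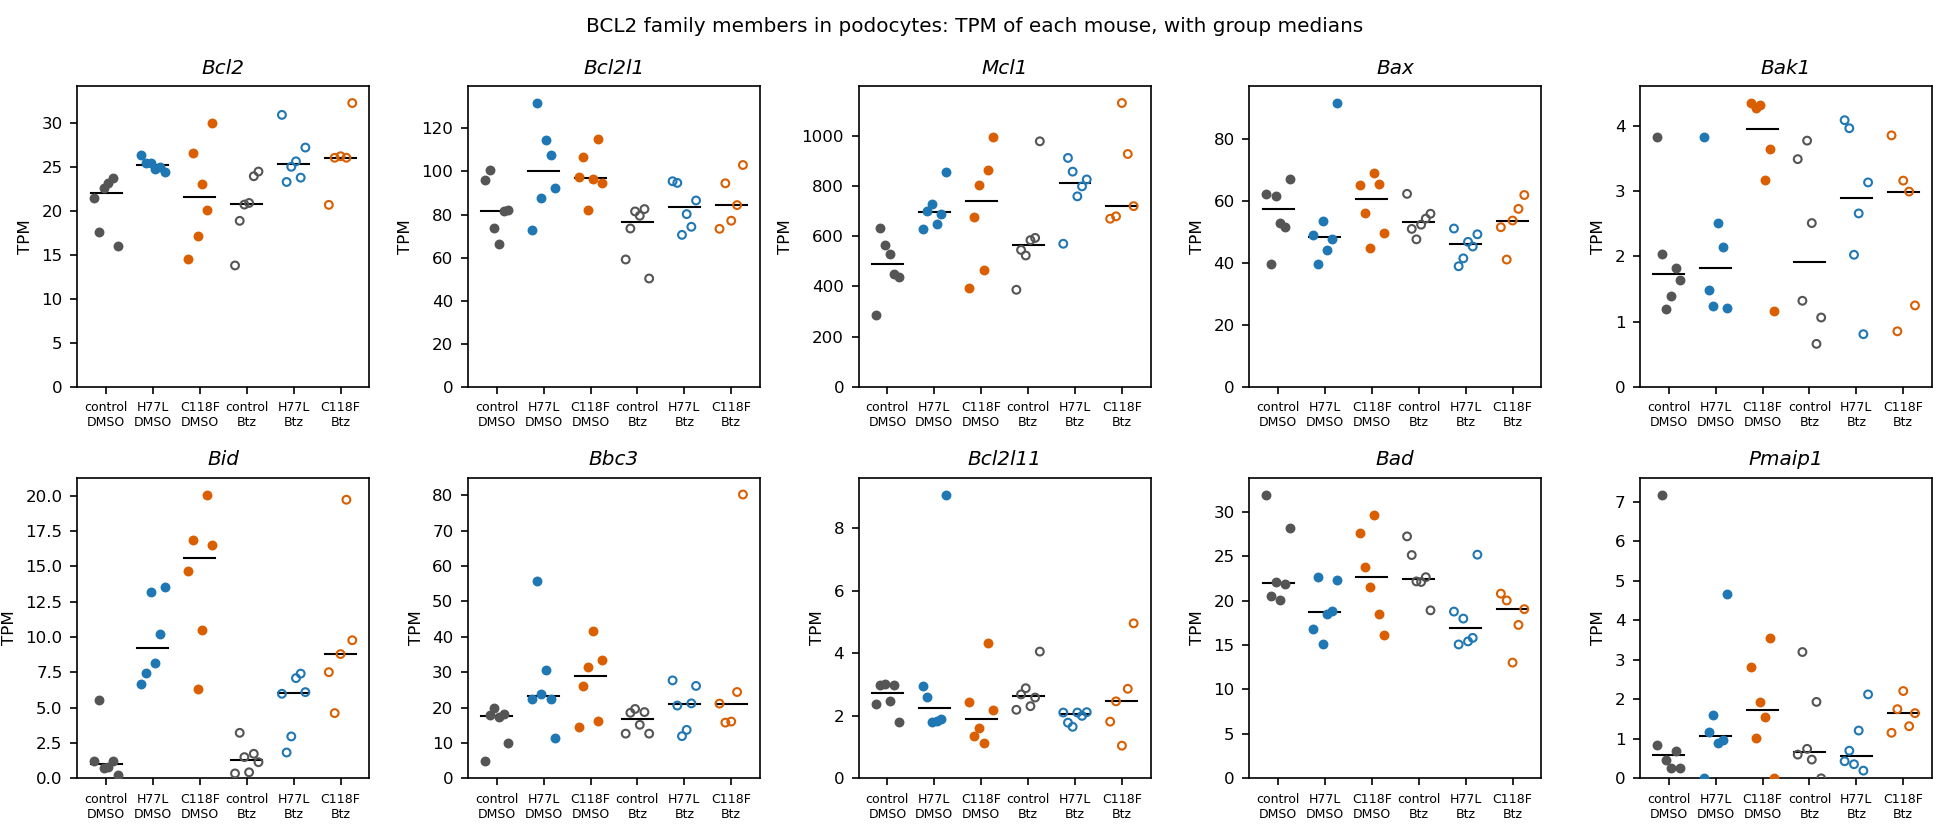
TPM of the 10 BCL2 family members in each mouse by group, on linear axes that start at 0. Points are mice, filled for DMSO and open for bortezomib (Btz), and the horizontal lines are group medians. *Bid* sits at or below 5.52 TPM in all 12 control mice and at or above 6.33 TPM in all 12 DMSO-treated knock-in mice. Bortezomib-treated knock-in mice reach into the control range, with lowest values of 1.83 TPM in H77L and 4.61 TPM in C118F mice.

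*Bid*, the BH3-only gene at the junction with death receptors, was the member that set both knock-in lines apart from the control. In DMSO-treated control mice it had a lowest value of 0.240, a median of 0.989 and a highest value of 5.52 TPM. H77L mice had 6.67, 9.20 and 13.5 TPM, and C118F mice 6.33, 15.6 and 20.1 TPM. The lowest of the 12 knock-in mice thus lay above the highest control mouse, and 5 of the 6 controls were at or below 1.23 TPM. On the log2(TPM + 1) scale, *Bid* rose by 2.24 in H77L (SE 0.33, 95% confidence interval 1.54 to 2.94, adjusted p = 9.0e-05) and by 2.69 in C118F mice (SE 0.36, 1.92 to 3.45, adjusted p = 6.0e-05). The ratio of median TPM was 9.30 for H77L and 15.7 for C118F, larger than the transformed values give because the added 1 TPM weighs on the low control level. In reads, *Bid* had 5 to 80 in DMSO-treated controls against 121 to 282 in H77L and 145 to 374 in C118F mice. Because the same 6 control mice entered both comparisons, the rise in C118F does not independently repeat the rise in H77L.

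Under bortezomib *Bid* was again higher in both lines, by a smaller margin in H77L. Bortezomib-treated control mice had 0.346, 1.32 and 3.22 TPM (lowest, median and highest), and H77L mice 1.83, 6.04 and 7.41 TPM. The 5 C118F mice had 4.61, 7.51, 8.79, 9.77 and 19.7 TPM. All 5 C118F mice and 4 of the 6 H77L mice were above the highest control mouse. The rise was 1.39 in H77L (SE 0.32, 95% confidence interval 0.71 to 2.06, adjusted p = 0.0044) and 2.19 in C118F mice (SE 0.34, 1.46 to 2.91, adjusted p = 2.6e-04), on the log2(TPM + 1) scale. These controls were different mice from the DMSO-treated ones, so the comparisons under either treatment share no library.

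*Bid* passed the filter on low values only through the knock-in groups, which limits what its place among the tested members can show; fitted without any filter it kept an adjusted p of 9.2e-04 in H77L and 7.3e-04 in C118F mice under DMSO. In the DMSO-treated controls the highest value, 5.52 TPM, came from 1 mouse (replicate 2) that also had the highest summed level of 10 tubule markers of all mice, 1821 TPM. The same held for 1 bortezomib-treated control mouse (replicate 2), with 3.22 TPM of *Bid* and a tubule sum of 789 TPM, the highest of its group. Median tubule sums were 120 TPM in DMSO-treated control, 18.6 TPM in H77L and 21.9 TPM in C118F mice, with 1 H77L mouse at 798 TPM. The relation of the tubule sum to *Bid* was not tested. Without the DMSO-treated control mouse, the rise was 2.55 in H77L and 2.997 in C118F mice. The mesangial sum, carried mainly by *Des* and *Pdgfrb*, was also higher in both lines under DMSO. It ranged from 40.1 to 91.8 TPM in control, 587 to 963 TPM in H77L and 628 to 2796 TPM in C118F mice. The 2796 TPM belonged to C118F replicate 1, and the highest *Ren1* value over all mice was 2166 TPM. The part of this sum in the *Bid* result was not tested. Of the 8 genes of that list, *Itga8* and *Gata3* were at 0 in 10 and 14 mice, with medians of 0.132 and 0.0497 TPM over all mice. A sum carried mainly by *Des* and *Pdgfrb* does not by itself measure mesangial cells. In GENCODE vM39, exons of *Bid* overlap those of *Bcl2l13* on the opposite strand over 3059 of 9796 bases. The smallest length that gave whole reads for *Bid* was 3550 bases, so the overlap of the exons behind its TPM is not known. Since it was not given whether reads were counted by strand, reads of the overlap cannot be assigned with certainty. *Bcl2l13* had medians of 20.9, 27.6 and 25.1 TPM in DMSO-treated control, H77L and C118F mice.

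**Figure D2:**
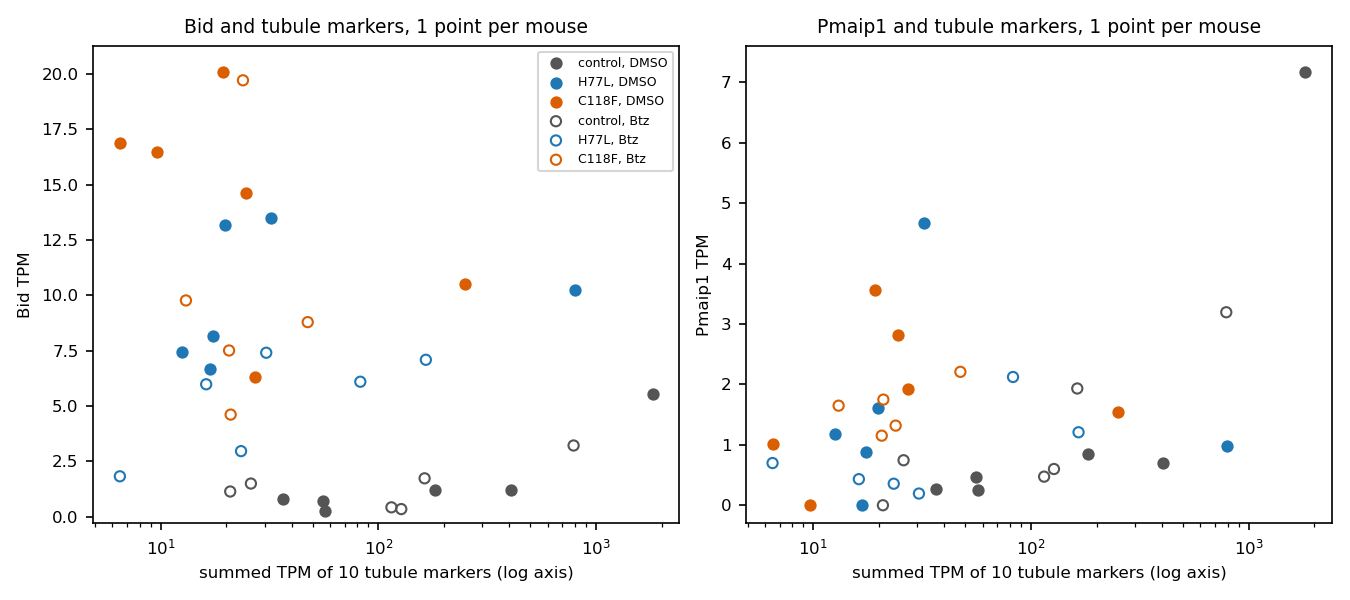
*Bid* (left) and *Pmaip1* (right) in TPM against the summed TPM of 10 tubule markers (log axis), 1 point per mouse, filled for DMSO and open for bortezomib. Among DMSO-treated control mice, the mouse with a tubule sum of 1821 TPM is the highest for both genes (5.52 and 7.18 TPM). The relation of either gene to the tubule sum was not tested.

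The pro-survival gene *Mcl1* was also higher in the DMSO-treated H77L mice. Its TPM in the DMSO-treated control was 285 at the lowest, 490.1 at the median and 632 at the highest, and in H77L mice 629, 695 and 855. All but 1 of the H77L mice exceeded every control mouse. The difference was 0.59 on the log2(TPM + 1) scale (SE 0.16, adjusted p = 0.0080). In C118F mice *Mcl1* spread from 394 through a median of 741 to 995 TPM, and a difference of similar size, 0.50, did not pass (SE 0.24, 95% confidence interval -0.0013 to 1.00, adjusted p = 0.12). Under bortezomib the differences were 0.43 in H77L (adjusted p = 0.085) and 0.48 in C118F mice (adjusted p = 0.093). Without 1 bortezomib-treated control mouse (replicate 6) both passed, at 0.58 (adjusted p = 0.0036) and 0.63 (adjusted p = 0.0099). With mouse number as a covariate they were 0.29 (adjusted p = 0.27) and -0.02 (adjusted p = 0.96). Most control numbers lay below every C118F number under bortezomib, so that fit cannot fully separate mouse number from genotype.

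*Bcl2*, the founding pro-survival member, was narrow and slightly higher in DMSO-treated H77L mice, with 24.4, 25.2 and 26.4 TPM against 16.1, 22.1 and 23.7 TPM in the control. These ranges did not overlap, and the difference of 0.28 passed narrowly (SE 0.11, adjusted p = 0.044). The call was lost in 9 of 12 fits that left out 1 mouse, with adjusted p up to 0.097. In C118F mice *Bcl2* ranged from 14.6 to 30.01 TPM on both sides of the control, with a difference of 0.05 (95% confidence interval -0.33 to 0.42). Under bortezomib the differences were 0.35 in H77L (adjusted p = 0.070) and 0.35 in C118F mice (adjusted p = 0.11). *Bcl2l1*, which encodes BCL-XL, was at a median of 81.7 TPM in DMSO-treated control, 100.1 TPM in H77L and 97.0 TPM in C118F mice, with overlapping ranges. Its 4 knock-in differences lay between 0.25 and 0.29 and none passed, the lowest adjusted p being 0.13. In H77L mice under DMSO it passed without H77L replicate 1, at 0.35 (adjusted p = 0.040), and with mouse number as a covariate, at 0.51 (adjusted p = 0.031).

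Neither pore-forming effector passed the test in any comparison. *Bax* had medians of 57.4 TPM in DMSO-treated control, 48.5 TPM in H77L and 60.7 TPM in C118F mice, with differences of -0.08 (95% confidence interval -0.46 to 0.30) and 0.06 (-0.25 to 0.37). Within the H77L group 1 mouse (replicate 6) had 91.7 TPM and the other 5 had 39.7 to 53.6 TPM. Under bortezomib *Bax* was 39.0 to 51.2 TPM in H77L against 47.7 to 62.4 TPM in control mice, a difference of -0.24 (adjusted p = 0.069). *Bak1* was low throughout, at 0.658 to 4.35 TPM. In C118F mice under DMSO, 5 of 6 mice had 3.17 to 4.35 TPM and 1 mouse (replicate 6) had 1.15 TPM, against 1.20 to 3.83 TPM in the control. The difference of 0.57 did not pass (adjusted p = 0.11), and it was 0.77 without that mouse (adjusted p = 0.018). Reads of 3 to 67 per mouse are behind these *Bak1* values.

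Among the other BH3-only genes, *Bbc3* came nearest to the threshold. DMSO-treated control mice had 4.98, 17.6 and 19.998 TPM, H77L mice 11.3, 23.2 and 55.8 TPM, and C118F mice 14.5, 28.8 and 41.6 TPM. The highest control was exceeded by 5 of 6 H77L and 4 of 6 C118F mice. Differences of 0.84 (SE 0.35, adjusted p = 0.062) and 0.87 (SE 0.32, adjusted p = 0.054) missed the threshold, and the lowest control mouse (replicate 1) also had the highest summed level of the 12 leukocyte markers, 512 TPM. Without this mouse the differences were 0.59 and 0.62. Under bortezomib the control, H77L and C118F medians were 16.8, 20.9 and 21.1 TPM, with differences of 0.26 (adjusted p = 0.38) and 0.64 (adjusted p = 0.17), the latter containing 1 mouse at 80.2 TPM (replicate 5) above 4 at 15.7 to 24.4 TPM. Without that mouse the C118F difference was 0.24 (adjusted p = 0.37).

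*Bad*, whose protein binds BCL2 and BCL-XL when it is not phosphorylated, pointed lower in H77L mice without passing. Its medians were 22.0 and 18.7 TPM in DMSO-treated control and H77L mice, a difference of -0.32 (adjusted p = 0.075), and 22.4 and 16.9 TPM under bortezomib, a difference of -0.35 (adjusted p = 0.070). With each mouse centred on its median, the difference under DMSO was -0.38 (adjusted p = 0.031). The C118F differences were -0.08 under DMSO and -0.35 under bortezomib (adjusted p = 0.087). In GENCODE vM39, exons of *Bad* share 914 of 4485 bases with *Gpr137* on the other strand, which had a median of 26.5 TPM. The smallest length that gave whole reads for *Bad* was 2558 bases, and the same uncertainty about overlap and strand applies.

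*Bcl2l11*, which encodes BIM, had medians of 2.74 TPM in DMSO-treated control, 2.25 TPM in H77L and 1.91 TPM in C118F mice. The differences of 0.10 and -0.25 did not pass, and the H77L group held 1 mouse at 9.09 TPM (replicate 6) above 5 at 1.79 to 2.95 TPM. Without that mouse the H77L difference was -0.17 (adjusted p = 0.46). Under bortezomib all 6 H77L mice, at 1.65 to 2.12 TPM, were below all 6 control mice, at 2.19 to 4.06 TPM, yet the difference of -0.34 did not pass (SE 0.16, adjusted p = 0.13). *Pmaip1* was near its limit of detection, with 0 reads in 3 mice, for which 3 reads would equal 0.215 to 0.234 TPM. Control medians were 0.586 and 0.672 TPM under DMSO and bortezomib, H77L medians 1.08 and 0.565 TPM, and C118F medians 1.73 and 1.65 TPM. The highest *Pmaip1* value of all, 7.18 TPM, belonged to the control mouse with the highest tubule sum. It passed the filter for C118F against control only under bortezomib, with a difference of 0.43 (95% confidence interval -0.25 to 1.11).

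Counted over the family, 3 of the 9 members tested rose in H77L mice under DMSO, beside 44.8% of all 10964 genes that were called in this comparison. For C118F under DMSO the count was 1 of 9 beside 30.4% of all genes. Under bortezomib it was 1 of 8 in H77L beside 23.6%, and 1 of 9 in C118F beside 27.5%. No member was called lower in these 4 comparisons. The percentages count genes called in either direction, and the member shares did not exceed them. Over all genes, 2452 of 10964, 1498 of 10899, 1355 of 10805 and 1653 of 10916 were called higher, in this order. Counted upwards only, the member share was above that of all genes in H77L mice under DMSO alone. Median differences of the tested members were 0.27, 0.25, 0.25 and 0.35 in this order, with medians of -0.01, -0.06, -0.01 and 0.00 over all genes.

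**Figure D3:**
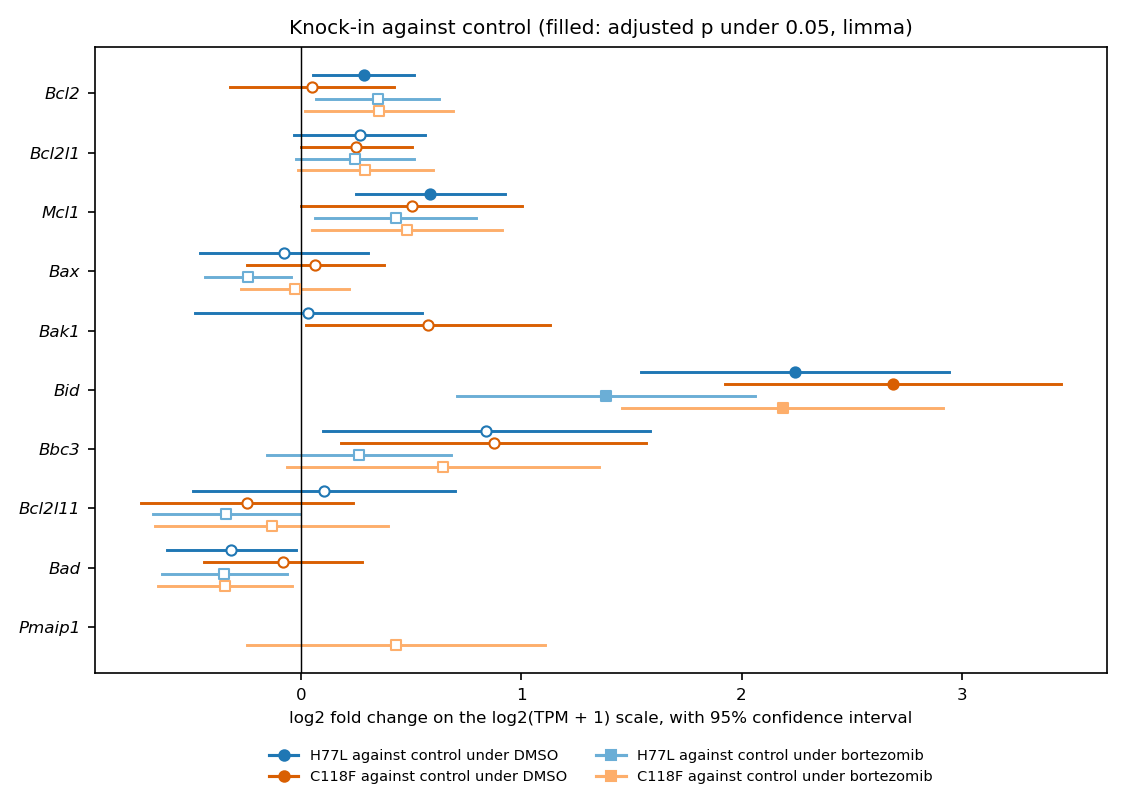
Difference of each member between knock-in and control mice on the log2(TPM + 1) scale with 95% confidence intervals, circles for DMSO and squares for bortezomib, filled where the adjusted p was under 0.05. *Bid* is the member with filled symbols in all 4 comparisons, at 1.39 to 2.69, while all differences of *Bax* lie between -0.24 and 0.06. Members without a symbol did not pass the filter.

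Bortezomib against DMSO was compared within each genotype, since proteasome inhibition is known to act on the stability of several members at the protein level. In control mice none of the 8 members tested was called by limma, and none had an unadjusted p under 0.05, beside 0% of all genes called and 8.66% with an unadjusted p under 0.05. In H77L mice 0 of 9 were called, with 1 at an unadjusted p under 0.05, beside 1.16% of all genes called and 20% unadjusted. In C118F mice 0 of 10 were called and 0 had an unadjusted p under 0.05, beside 0% of all genes called and 5.86% unadjusted. Fits with limma voom on recovered reads called 0 members in all 3 comparisons.

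The member with an unadjusted p under 0.05 was *Bid* in H77L mice. It had 6.67, 9.20 and 13.5 TPM under DMSO and 1.83, 6.04 and 7.41 TPM under bortezomib, and 4 of 6 bortezomib-treated mice were below the lowest DMSO-treated mouse. The difference was -0.86 (SE 0.27, 95% confidence interval -1.44 to -0.29, unadjusted p = 0.0060, adjusted p = 0.10). In C118F mice the median was 15.6 TPM under DMSO and 8.79 TPM under bortezomib, a difference of -0.51 (-1.21 to 0.20, adjusted p = 0.82). In control mice *Bid* did not pass the filter, and without a filter its difference was -0.01 (SE 0.40). The bortezomib responses of the lines were compared directly by an interaction term. For *Bid* the H77L response minus the control response was -0.86 (95% confidence interval -1.85 to 0.14, adjusted p = 0.34), and the H77L response minus the C118F response was -0.36 (-1.28 to 0.56, adjusted p = 0.80). Of the members tested, 0 of 9 were called for H77L minus control, 0 of 10 for C118F minus control and 0 of 10 for H77L minus C118F, and none had an unadjusted p under 0.05, by limma. Over all genes 0% were called in each, with 18.2%, 5% and 7.6% at an unadjusted p under 0.05, and limma voom called 0 members in each.

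The pro-survival members showed no change with bortezomib that passed. *Mcl1* differed by 0.30 in control (95% confidence interval -0.14 to 0.74), 0.14 in H77L (-0.09 to 0.38) and 0.28 in C118F mice (-0.23 to 0.79). *Bcl2l1* differed by -0.23, -0.25 and -0.19, and its upper confidence limits were 0.06, 0.02 and 0.07. *Bcl2* differed by -0.03, 0.03 and 0.28 and *Bax* by -0.04, -0.20 and -0.13. The interval of *Mcl1* in control mice still includes a difference of 0.74, and these intervals do not show that bortezomib left the RNA levels equal.

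**Figure D4:**
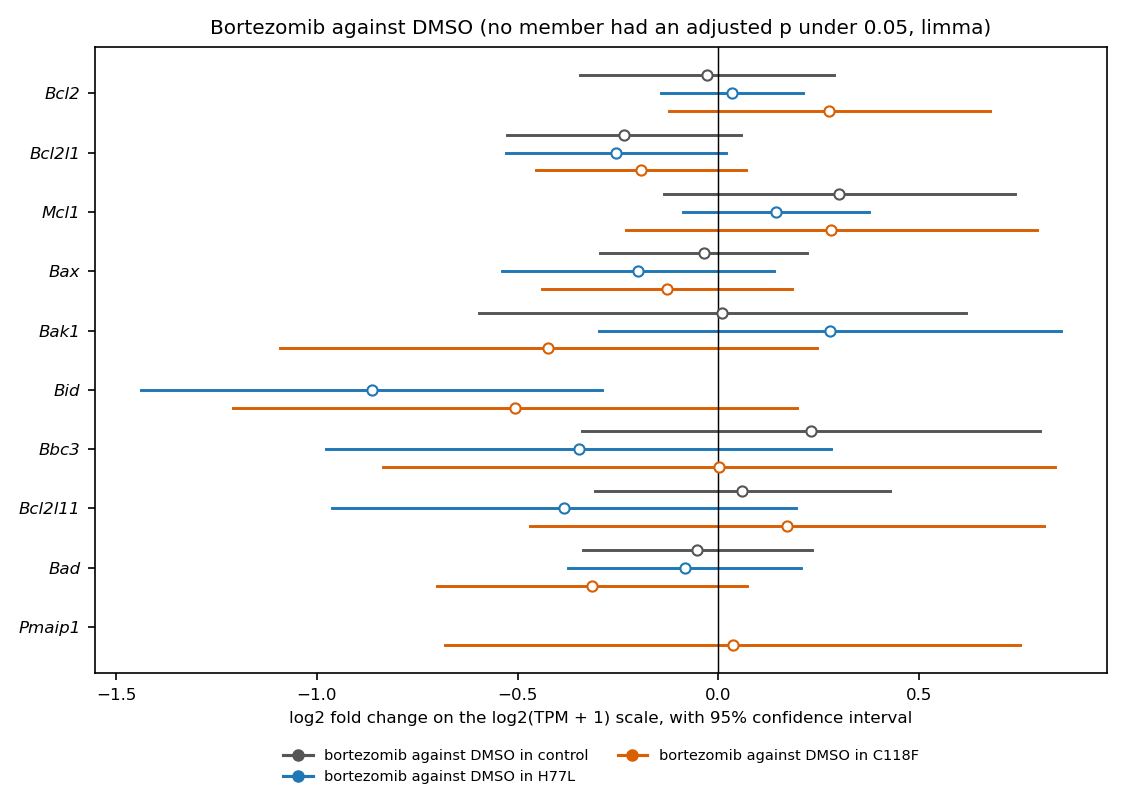
Difference of each member between bortezomib- and DMSO-treated mice of the same genotype on the log2(TPM + 1) scale with 95% confidence intervals, in grey for control, blue for H77L and orange for C118F. All symbols are open because no member had an adjusted p under 0.05, and *Bid* in H77L mice has the interval farthest from 0, -1.44 to -0.29.

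C118F and H77L mice were compared with each other under each treatment. Under DMSO 0 of 9 members were called by limma and 0 had an unadjusted p under 0.05, beside 0% of all genes called and 3.85% unadjusted. Under bortezomib 0 of 9 were called, with 2 at an unadjusted p under 0.05, beside 0.972% of all genes called and 14.4% unadjusted, and limma voom called 0 under either treatment. Those 2 were *Bid*, higher in C118F by 0.80 (95% confidence interval 0.08 to 1.52, adjusted p = 0.30), and *Pmaip1*, higher by 0.58 (0.03 to 1.13, adjusted p = 0.32), which passed the filter only through the C118F mice, where it was higher. Under DMSO *Bid* was higher in C118F by 0.44 (-0.10 to 0.99). *Mcl1*, *Bcl2l1* and *Bcl2* differed between the lines by -0.09, -0.02 and -0.23 under DMSO and by 0.05, 0.05 and 0.01 under bortezomib.

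Other genes of the apoptosis pathway were taken from 8 lists. In the wider BCL2 family, 6 of 15 genes passed the filter, and in H77L mice under DMSO 2 rose and 2 fell, whereas in C118F mice 1 rose and 1 fell. *Bok*, which encodes a relative of BAX and BAK, rose by 1.10 in H77L (adjusted p = 2.5e-05) and 1.32 in C118F mice (adjusted p = 1.8e-06), from a control median of 24.7 TPM to 51.6 and 60.04 TPM. *Bcl2l2*, which encodes the pro-survival protein BCL-W, fell by 0.71 and 0.47 (adjusted p = 7.2e-04 and 0.043). The lists were read beside 44.8% and 30.4% of all genes called in these comparisons.

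The next list was drawn up around death receptors, and not every gene of it is a death receptor or acts upstream of *Bid*. Of its 10 genes, all tested, 5 rose and 3 fell in H77L and 4 rose and 2 fell in C118F mice under DMSO. *Tnfrsf12a*, the receptor of the cytokine TWEAK, rose by 1.87 and 2.31, *Fas* by 1.51 and 1.78, *Tnfrsf10b*, the TRAIL receptor, by 1.45 and 1.16, and *Tnfrsf1a*, a TNF receptor, by 0.80 and 1.07, in H77L and C118F mice respectively. Median differences of the list were 0.40 and 0.20, and under bortezomib 3 rose and 2 fell in either line. Of the p53 list, 16 of 18 genes were tested, with 6 higher and 2 lower in H77L and 5 higher and 2 lower in C118F mice. Under bortezomib 15 were tested, with 3 higher and 2 lower in H77L and 3 higher and 3 lower in C118F mice, beside the 23.6% and 27.5% of all genes called. Under DMSO *Phlda3*, a p53 target that restrains AKT, rose by 3.16 and 3.66, *Cdkn1a*, the gene of the cell cycle inhibitor p21, by 2.85 and 3.25, and *Perp* by 1.94 and 2.39, whereas *Trp53inp1* fell by 1.31 and 1.42. *Fas*, *Tnfrsf10b* and *Phlda3* were as low as 0.389, 0.103 and 0.308 TPM in DMSO-treated control mice and passed the filter only through the knock-in groups. *Bbc3* and *Bax*, which are p53 targets too, had no call in these comparisons, and *Pmaip1* was not tested under DMSO.

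All 14 genes of the apoptosome and caspase list were tested, with 0 higher and 3 lower in H77L and 0 higher and 2 lower in C118F mice under DMSO. The channels of the outer membrane *Vdac1* and *Vdac2* fell by 0.39 and 0.41 in H77L and by 0.52 and 0.38 in C118F mice. Among inhibitors of apoptosis, 4 of 8 were tested, and *Birc3* rose by 1.95 and 1.88 whereas *Birc2* fell by 0.70 and 0.63. The integrated stress response list, with 7 of 8 genes tested, had 5 higher in H77L and 4 higher in C118F mice, including *Asns* by 1.61 and 1.71, *Ppp1r15a* by 1.42 and 1.25 and *Ddit3*, which encodes CHOP, by 0.73 and 0.68. In the list of FOXO, JNK and E2F1, 1 of 6 tested genes fell in either line, namely *E2f1* by 1.09 and 1.38. Of the MCL1 turnover list, 6 of 7 were tested, with 1 higher and 1 lower in H77L and 0 higher and 1 lower in C118F mice under DMSO, and 2 higher and 0 lower in C118F mice under bortezomib. The ubiquitin ligase adaptor *Btrc* fell by 0.41 and 0.51 under DMSO. With bortezomib 1 list gene was called in H77L mice, *Endog*, a mitochondrial nuclease, which rose by 0.62 (adjusted p = 0.035). No list gene was called in control or C118F mice. Larger falls that missed the threshold in H77L mice included *Phlda3* at -1.97 (adjusted p = 0.057), *Cdkn1a* at -1.85 (0.051) and *Perp* at -0.92 (0.056). In C118F mice these 3 genes differed by -0.78, -1.24 and -0.32 (adjusted p from 0.81 to 0.84). The p53 list had medians of -0.37 in H77L and -0.10 in C118F mice. *Phlda3* and *Cdkn1a* were high in 1 DMSO-treated H77L mouse (replicate 6), at 196 and 258 TPM. The others of its group had 14.9 to 51.2 and 31.4 to 79.99 TPM. This mouse enters the H77L rises and falls of both genes, which were not fitted without it. Under bortezomib *Phlda3* and *Perp* were higher in C118F than in H77L mice by 1.69 and 1.05 (adjusted p = 0.014 and 0.017), and *E2f1* was lower, by -0.60 (adjusted p = 0.018). Under DMSO *Phlda3*, *Perp* and *E2f1* differed between the lines in the same directions, by 0.50, 0.45 and -0.29, without a call. For the H77L response minus the C118F response, 0% of all genes were called.

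**Figure D5:**
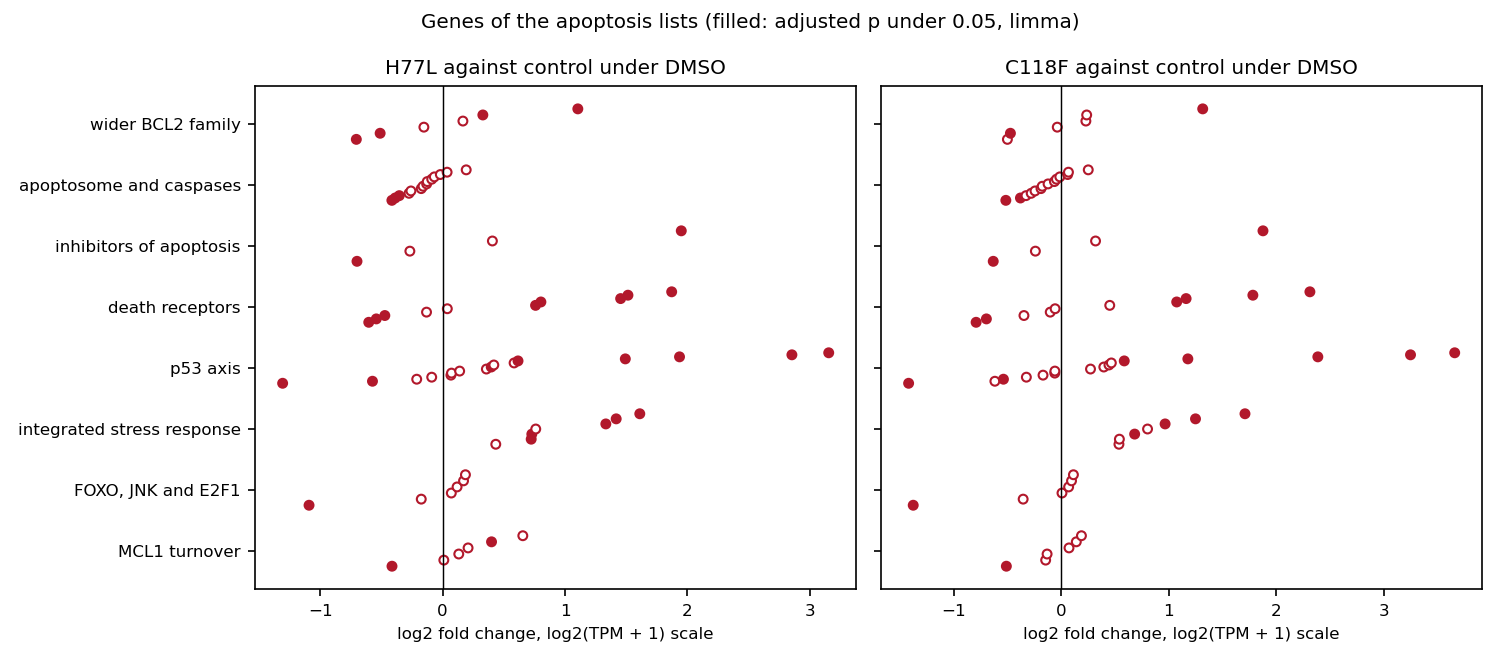
Differences of single genes in 8 apoptosis lists between knock-in and control mice under DMSO on the log2(TPM + 1) scale, H77L on the left and C118F on the right, filled where the adjusted p was under 0.05. In H77L mice the filled points of the p53 list include *Trp53inp1* at -1.31 and *Phlda3* at 3.16, while the 3 filled points of the apoptosome and caspase list are all under 0.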

How the data were processed

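Podocytes of 35 mice in 6 groups of genotype and treatment were profiled by poly(A) RNA-seq with single-end reads, the groups being those of the labels. Per the submitters' notes and the methods, reads were trimmed with Trim Galore 0.6.7, aligned to GRCm39 with STAR, each multimapping read being placed at 1 random location, and counted with featureCounts 1.6.3, with PCR duplication assessed by Picard. The TPM values were deposited by the authors and sum to 1000000 in each mouse; the step from counts to TPM and the use of strand are not given in the sources used here. The authors tested counts with DESeq2, which TPM values do not allow. No column was left unused. Of 33292 identifiers, 32776 were named in GENCODE vM39. Whole reads were recovered from the steps of the TPM values, within 0.001 reads, for 99.6% of the 23943 genes above 0. PCR copies make reads dependent, and p-values rest on the variation from mouse to mouse.

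For each of 12 comparisons, genes exceeding 1 TPM in all mice of any group compared were fitted as log2(TPM + 1) with limma 3.58.1 (R 4.3.3; lmFit, eBayes with intensity trend) on the mice of those groups, two-sided. Adjusted p-values are Benjamini-Hochberg over all genes tested, and a gene was called at an adjusted p under 0.05. Log2 differences on this scale understate changes of low genes. In simulated data for H77L against control under DMSO, 157 of 200 genes (78.5%) changed by 1 on the log2 scale were recovered among 10311. Both groups were drawn there as independent normal values from the means and SDs of the DMSO-treated control mice. The spread of the knock-in mice was not used, and 4907 of 10964 genes were called in the real comparison. The share is therefore a check of the code and not the power of that comparison. Alternatives were a pseudocount of 0.1, no filter, 1 fit of all 35 mice, mouse number as a covariate, centring on the median of each mouse, no trend, the cutoffs of the study (adjusted p under 0.001 and log2 fold change beyond 2), leaving out each mouse and, chosen after seeing the data, limma voom on recovered reads.

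The members and lists were chosen with earlier results of these data known. Besides all members, up to 4 genes per list were named: those called in both lines in the same direction under DMSO with the largest mean change, and list genes called in a comparison involving bortezomib. Promoter sequences are from RefSeq.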

Additional observations from a re-analysis of the deposited data

Results flagged for a closer look

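Of 60 groups of values, 10 members in 6 groups, 6 held a mouse that stood apart from its group by Dixon's criterion on the log2(TPM + 1) scale, and by chance about 1 group in 20 would. The DMSO-treated H77L mouse replicate 6 stood apart for 2 members: *Bax* at 91.7 TPM, next to 53.6 TPM in the nearest mouse, and *Bcl2l11* at 9.09 TPM, next to 2.95 TPM. The same mouse had the highest *Bid* (13.5 TPM), *Mcl1* (855 TPM) and *Pmaip1* (4.67 TPM) of its group and the lowest *Bbc3* (11.3 TPM) and *Bak1* (1.20 TPM). Its *Cdkn1a* was 258 TPM, against 31.4 to 79.99 TPM in the other 5 mice, and its *Phlda3* 196 TPM, against 14.9 to 51.2 TPM. These values were seen after the mouse had stood apart, and their relation was not tested. The rise of *Bid* in H77L mice was 2.15 without it.

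The DMSO-treated control mouse replicate 2 stood apart for *Bid* at 5.52 TPM, next to 1.23 TPM, and for *Pmaip1* at 7.18 TPM, next to 0.844 TPM. It had *Umod* at 416 TPM and *Slc34a1* at 220 TPM, both tubule genes, against at most 28.2 and 59.1 TPM in the other controls, and *Cdkn1a* at 24.6 TPM against at most 8.34 TPM. In C118F mice, *Bak1* stood apart at 1.15 TPM in DMSO-treated replicate 6, below 3.17 TPM in the nearest mouse. *Bbc3* stood apart at 80.2 TPM in bortezomib-treated replicate 5, next to 24.4 TPM, and this mouse also had the highest *Bcl2l11* (4.96 TPM) and *Cdkn1a* (61.9 TPM) of its group.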

How the results depend on the processing

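The call of *Bid* in DMSO-treated H77L and C118F mice and in bortezomib-treated C118F mice was made under all 8 alternatives and without each mouse; in bortezomib-treated H77L mice it failed only the cutoffs of the study. No called member changed direction. The number of members called for H77L under DMSO was 3, but 1 (*Bid*) with the cutoffs of the study, 2 without a filter (*Bid*, *Mcl1*), 4 with mouse number (*Bid*, *Mcl1*, *Bbc3*, *Bcl2l1*) and 2 to 3 without single mice. For C118F under DMSO it was 1, but 3 with all 35 mice in 1 fit (*Bid*, *Mcl1*, *Bbc3*), 2 with limma voom (*Bid*, *Bbc3*), and 1 to 3 over the fits that left out 1 mouse, reaching 3 without C118F replicate 1. It reached 2 without C118F replicate 5 or 6 or control replicate 1 or 3. For H77L under bortezomib it was 1, but 0 with the cutoffs of the study, 2 without a trend (*Bid*, *Bcl2l11*), 2 with limma voom (*Bid*, *Bcl2*), and 1 to 4 without single mice, 4 without control replicate 6 and 2 without H77L replicate 1 or 6. For C118F under bortezomib it was 1, and 1 to 2 without single mice, reaching 2 without control replicate 6. All comparisons without a call kept 0 members under every alternative run. *Bcl2* in DMSO-treated H77L mice had adjusted p of 0.055 without a filter, 0.10 with all mice, 0.26 with mouse number and 0.10 when centred. *Bbc3* passed in H77L with all mice (adjusted p = 0.048) and with mouse number (0.018). The calls lost by leaving out a mouse were all of *Bcl2* in that comparison, in 9 of 12 fits. Over all genes, the calls in H77L under DMSO went from 4907 to 2873 with mouse number, and the cutoffs of the study left 238 (H77L) and 247 of 3308 (C118F) under DMSO and 130 of 2545 and 211 of 3002 under bortezomib. The 125 calls of bortezomib in H77L became 0 without a filter, 58 with all mice and 19 without a trend, and the 0 in C118F became 31 with all mice. The 105 calls between lines under bortezomib became 13 without a filter, 30 with all mice, 24 with mouse number and 51 without a trend, and the 0 for the response of H77L minus control became 3 without a trend. No paired analysis was possible because each mouse has a number of its own in the labels and none is shared between groups. These numbers are unevenly spread over the groups, so mouse number as a covariate is partly confounded with genotype. The depth of the shallowest mouse and counts under 100 reads limit *Bak1* and *Pmaip1* most.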
